A study of Drosophila melanogaster with 30 samples.

Results

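A set of 80 genes of Drosophila melanogaster was read in sorted ovarian germ cells and hardly at all in 3 cell lines derived from the ovary, and stayed low in ovarian somatic cells given the germline transcription factor Ovo. The set was chosen by level from 17807 genes. A gene entered it with a mean of at least 50 normalised read counts in vas-GFP-positive cells, at least 8 times the mean of vas-GFP-negative cells, a mean of at most 10 in each untransfected line, and a mean under 15 in OSCs with ovo-FLAG. A normalised read count is the number of reads of a gene divided by a factor for the depth of its library. Of the 338 genes that met the germ cell conditions, 243 were over 10 in at least 1 line, 95 were at or under 10 in all 3 lines, and 15 of these 95 reached 15 or more in OSCs with ovo-FLAG, among them osk and zpg. These values chose the genes, so the levels in sorted cells, in the untransfected lines and in OSCs with ovo-FLAG are given as descriptions. The l(3)mbt knockout OSCs that received ovo-FLAG or an empty vector took no part in the choice, and the comparison between them was tested.

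RNA was sequenced in 30 libraries of 9 groups. Germ cells (vas-GFP-positive, 3 libraries) and other cells (vas-GFP-negative, 3 libraries) were sorted from ovaries of flies whose vas gene is tagged with EGFP, on a white mutant background, and the cells of pooled ovaries were sorted. The age of the flies is not given in the sources used here. The untransfected lines, with 4 libraries each, were wild-type OSCs (a line of ovarian somatic cells), OSCs with a knockout of l(3)mbt (a chromatin repressor of germline genes in somatic cells), and fGS/OSS, a mixed culture of female germline stem cells and ovarian somatic sheet cells of wild-type genotype, kept partly in conditioned medium. OSCs and l(3)mbt knockout OSCs were also nucleofected with a plasmid carrying FLAG-tagged ovo under the act5C promoter or with the empty vector and collected after 48 h, with 3 libraries in each of these 4 groups. All cells were female. Each line was 1 stock from a stock centre, so the knockout is represented by 1 line. Nothing in the labels says that replicates were separate cultures or animals beyond their being distinct samples, so p-values measure the spread between these samples.

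Total RNA depleted of ribosomal RNA was used for the sorted cells and untransfected lines, and poly(A) RNA for the nucleofected cells. Libraries of vas-GFP-positive cells held 3.24 to 6.20 M counted reads, with 8.39 to 13.1 M in vas-GFP-negative cells and 9.68 to 23.1 M in the untransfected lines. There were 2.27 to 5.20 M in OSCs with ovo-FLAG and 5.82 to 8.61 M in knockout OSCs with ovo-FLAG. Replicate 3 of the knockout OSCs with the empty vector stood apart with 1.63 M reads, against 11.5 and 17.0 M in replicates 1 and 2. The 7 markers of ovarian germ cells, otu among them, summed to 2876 to 3264 RPM (reads per 1000000 counted reads) in vas-GFP-positive and to 39.7 to 48.1 in vas-GFP-negative cells, and the 10 markers of ovarian soma to 844 to 1059 and 18939 to 19685. The transcript of l(3)mbt had 5770 ± 774 normalised read counts in OSCs (SD, n = 4) and 5724 ± 215 in the knockout (SD, n = 4), so its level did not mark the knockout. Which part of the gene is missing was not given in the sources used here. The transcript of ovo differed between these lines, with 19.3 ± 1.29 in OSCs and 1842 ± 195 in the knockout (SD, n = 4 each), and was 2941 ± 94.6 in fGS/OSS (SD, n = 4).

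Female germ cells of Drosophila divide from a stem cell into a cyst of interconnected cells, of which a single cell becomes the oocyte and the rest become nurse cells that load it with RNA and protein. Part of this cargo is made for the embryo, and further genes serve meiosis or the differentiation of the cyst. Many germline genes are kept off in somatic cells, and Ovo, a zinc finger protein, is an activator of such genes in the female germline.

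Among the named regulators of the set, otu had the highest level. It encodes a deubiquitinating enzyme needed for the differentiation of germline cysts, and lies on chromosome X at 8485008 to 8489535 on the minus strand (BDGP6 assembly, gene FBgn0003023). The normalised read counts of otu were 2081, 2047 and 1811 in the 3 vas-GFP-positive libraries and 37.5, 36.6 and 34.9 in the vas-GFP-negative libraries. Over the 12 libraries of untransfected lines it had 5 reads in all, found in 3 libraries, and no read in the 4 libraries of knockout OSCs. The germ cell level of otu was thus close to constant across the 3 vas-GFP-positive libraries. Its level in every line was at or near 0, also in fGS/OSS, the line described as holding germline stem cells. In bulk libraries fewer cells that express a gene and less RNA of it per cell cannot be told apart.

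The gene stet encodes a rhomboid protease that acts in germ cells on ligands for the somatic cells around them. Its normalised read counts were 904, 1040 and 812 in vas-GFP-positive and 33.3, 15.3 and 25.4 in vas-GFP-negative cells, and its means in the 3 lines were between 1.73 and 3.77. For stil, a nuclear protein needed for survival of the female germline, the values were 364, 192 and 323 in vas-GFP-positive cells and 2.38, 13.6 and 1.88 in vas-GFP-negative cells. No read of stil was found in the 4 OSC libraries. The gene ord, which maintains cohesion of sister chromatids in meiosis, had 273, 326 and 202 in vas-GFP-positive cells and no read in the 3 vas-GFP-negative libraries. It had 2 reads in all over the 12 libraries of untransfected lines.

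The set also held transcripts that the mother supplies to the embryo. The gene caudal (cad) encodes a homeodomain protein of posterior patterning, and its values were 512, 592 and 603 in vas-GFP-positive cells and 23.8, 35.7 and 25.4 in vas-GFP-negative cells. The gap gene hunchback (hb), a zinc finger factor whose maternal RNA is repressed by Nanos, had 410, 291 and 720 against 8.33, 6.81 and 9.42. The means of cad in the lines were 1.25 in OSCs, 1.51 in the knockout and 2.58 in fGS/OSS, and those of hb were 0.511, 0.317 and 1.81. For both genes each vas-GFP-positive library was above each library of the other groups. The choice used the means of most of these groups, so nothing is read from this.

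**Figure D1:**
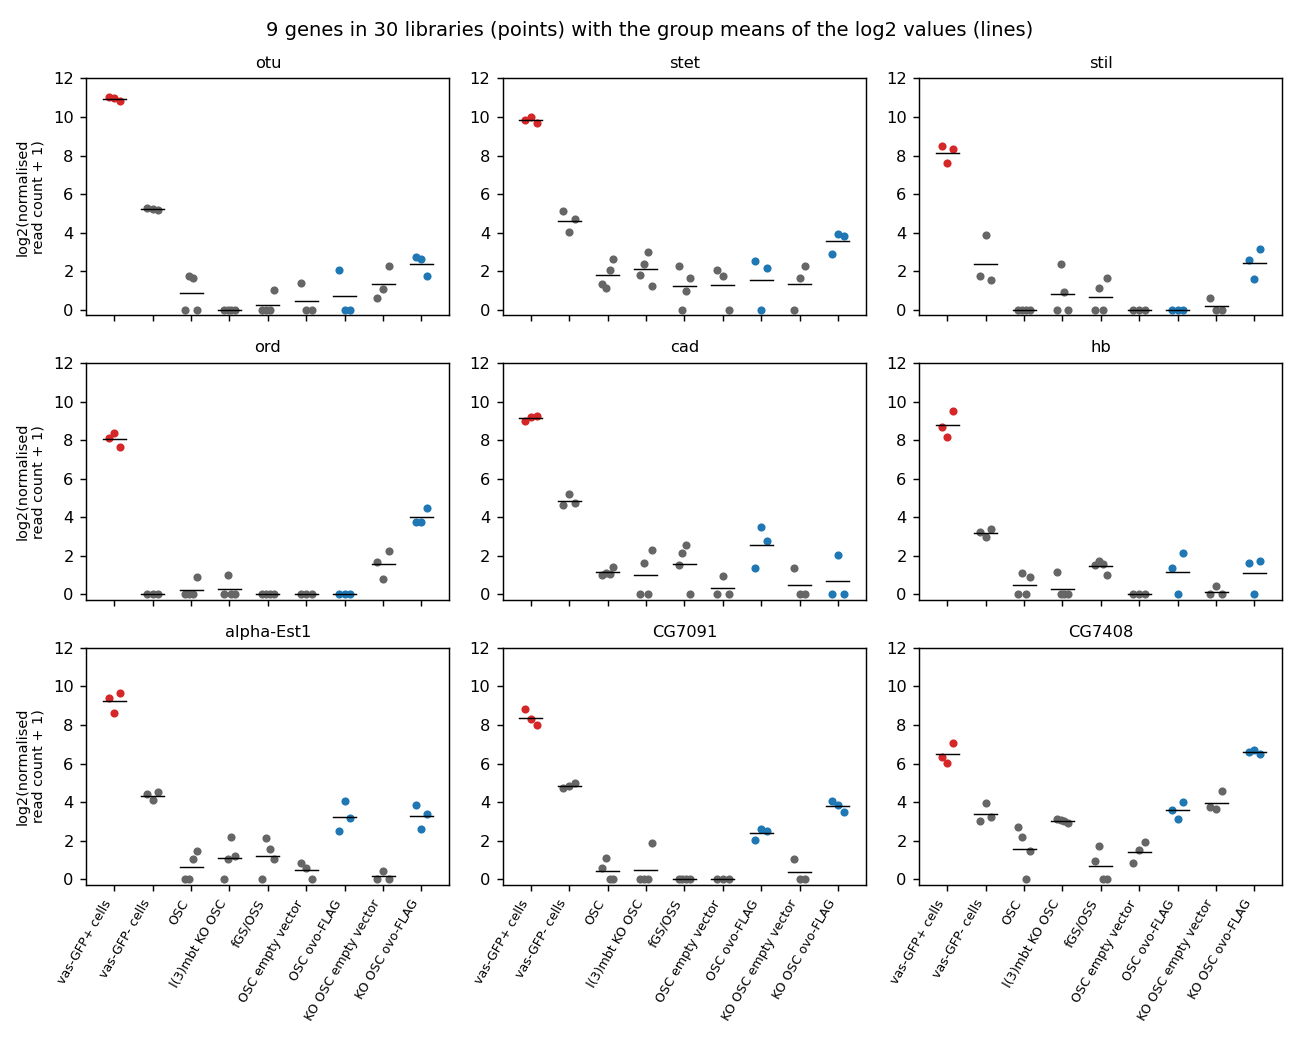
Level of 9 genes of the set in each of 30 libraries, as log2 of the normalised read count plus 1 on the vertical axis, with the groups along the horizontal axis (red, vas-GFP-positive cells; blue, cells with ovo-FLAG; grey, other groups; black lines, group means of the log2 values). The panel of otu shows vas-GFP-positive libraries from 1811 to 2081 normalised read counts and every line library near 0. The panel of CG7408 shows knockout OSCs with ovo-FLAG at the level of germ cells, in libraries of another RNA type.

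Genes of other roles made up most of the set. Counts of reads grow with transcript length, so levels were compared between genes as RPM per kilobase of exon. On this scale otu was at 101 ± 8.80 in vas-GFP-positive cells (SD, n = 3), followed by the zinc transporter gene ZnT35C at 85.8 ± 16.3 and the noncoding RNA lncRNA:CR45665 at 81.8 ± 32.6 (SD, n = 3 each). Next were stet at 62.6 ± 8.08, the carboxylesterase gene alpha-Est1 at 51.3 ± 17.5 and stil at 43.5 ± 13.6 (SD, n = 3 each). The ranges of the first 3 genes overlapped, and so did those of stet, alpha-Est1 and stil. Within each library otu was above ZnT35C and alpha-Est1 above stil, while the other neighbours changed places between libraries. The order was not tested.

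Membrane transporters and channels of the set were ZnT35C, the potassium leak channel gene Ork1, the copper transporter gene Ctr1B, Oatp33Ea and MFS12. This grouping by role, and those of the next sentences, were made after the values had been seen. The normalised read counts of Ork1 were 882, 701 and 913 in vas-GFP-positive and 82.7, 80.9 and 58.4 in vas-GFP-negative cells, the highest mean of the set in vas-GFP-negative cells at 74.0. Genes for enzymes that act on small molecules were alpha-Est1 (mean 627 in vas-GFP-positive cells), the P450 gene Cyp6a19 (438), the aldehyde dehydrogenase gene Aldh7A1 (148) and the glycosyltransferase gene Ugt305A1 (50.6).

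A further 6 genes are known from neurons. These are Rim and Rab3-GEF of the presynaptic release site, the glutamate receptor gene mGluR, unc79 of the sodium leak channel complex, the synaptic scaffold gene Hasp and Gr21a of the carbon dioxide receptor. Their means were between 63.0 and 121 normalised read counts in vas-GFP-positive and between 0.396 and 4.12 in vas-GFP-negative cells. The 6 neuron markers summed to 48.5 to 63.2 RPM in vas-GFP-positive and 37.9 to 40.7 in vas-GFP-negative cells. Of these markers elav was at 242 and 239 normalised read counts in the groups, Syt1 had no read in either, and 0 of 5 tested markers were called in either direction. Their part in the levels of the 6 genes was not tested. The 5 fat body markers summed to 11.7 to 39.0 RPM in vas-GFP-positive and to 1.10 to 1.61 in vas-GFP-negative cells, with apolpp at 130 and 9.29 normalised read counts and no read of Lsp2 or Fbp1 in vas-GFP-positive cells. The 6 haemocyte markers summed to 106 to 168 and 72.5 to 78.6, mostly from srp, with Hml lower in vas-GFP-positive cells and no read of NimC1 there. Their part was not tested either.

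Other genes among the 15 highest in vas-GFP-positive cells were CG12851 (625, 677 and 642 normalised read counts), CG18586 (143, 270 and 198), CG12355 (170, 223 and 193) and CG4415 (170, 351 and 119). In vas-GFP-negative cells CG12851 had 11.9, 15.3 and 5.65, and the means of the other 3 were under 2, so CG12851 was the steadiest of them in germ cells and the least depleted outside them.

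The set held 9 noncoding RNAs. Of these lncRNA:CR45665, lncRNA:CR45666 and lncRNA:CR45667 lie side by side on the minus strand of chromosome X, separated by 481 and 346 bases. Their values in vas-GFP-positive cells were 79.9, 126 and 188 for lncRNA:CR45665, 89.2, 161 and 146 for lncRNA:CR45666 and 86.9, 63.2 and 52.3 for lncRNA:CR45667. The order of the libraries was not the same in the 3 RNAs, and over the 12 libraries of untransfected lines they had between 0 and 3 reads each. Other members that lie side by side were CG13947, Gr21a and CG3544 on chromosome 2L, and ord with CG13540 at 197 bases on 2R. The gene models of CG5568 and CG18586 on 3L overlap on the same strand by 208 bases, so reads in the shared part could be of either gene. In all, 6 members shared exon sequence on the same strand with another annotated gene. On the opposite strand 21 members overlapped exons of another gene, among them otu, CG7408 and CG31517.

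**Figure D2:**
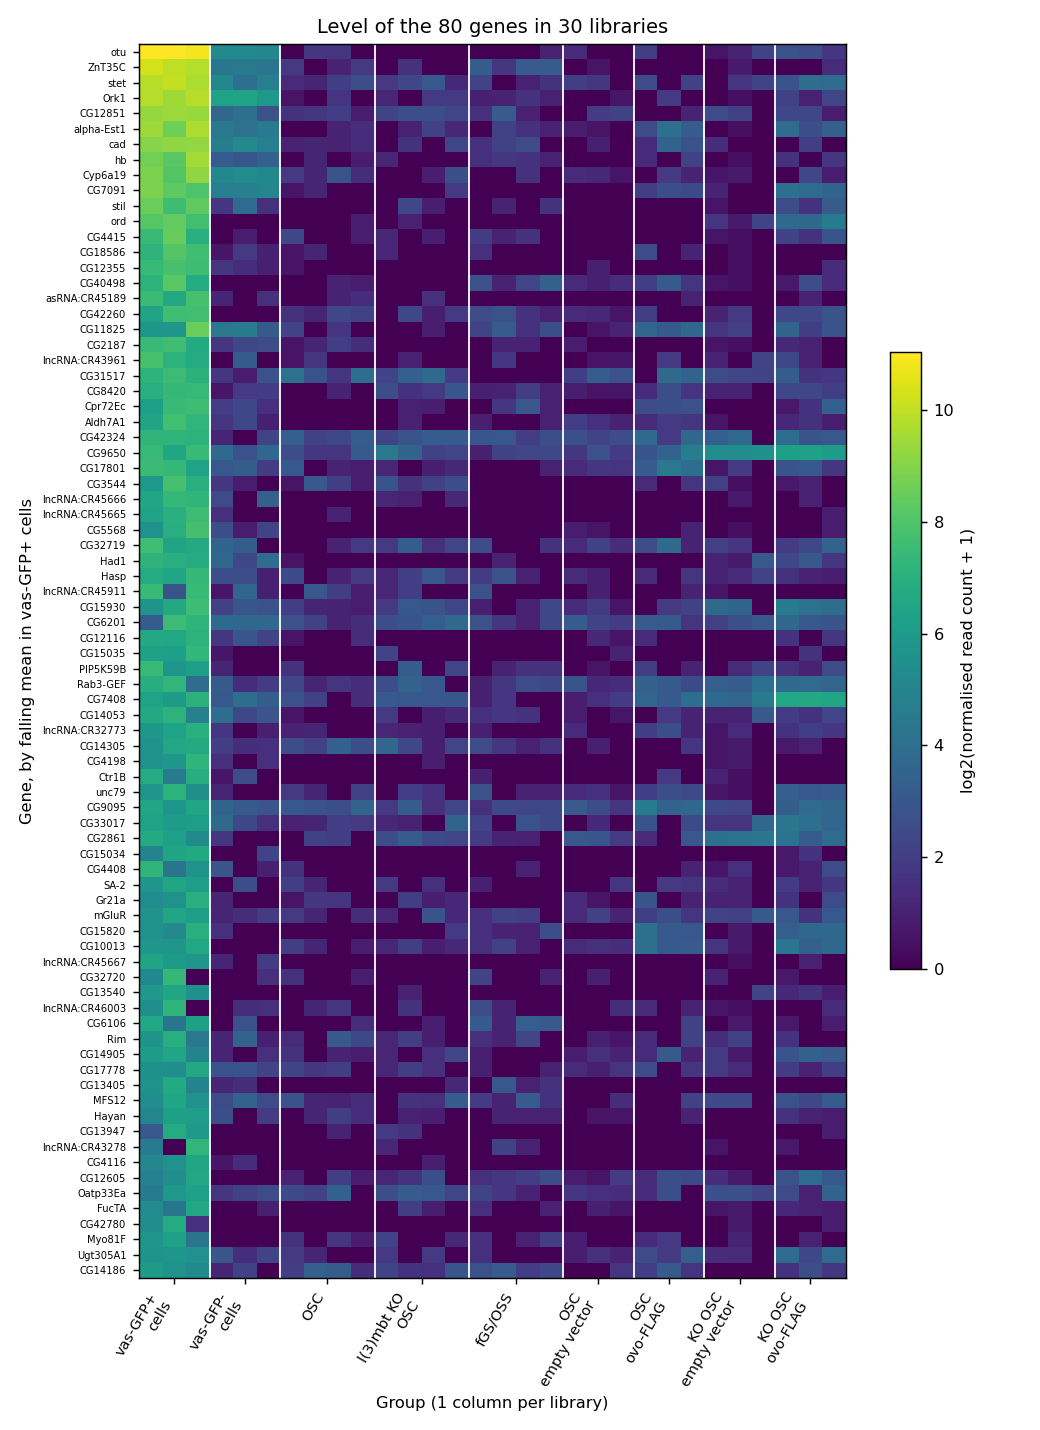
Level of the 80 genes (rows, by falling mean in vas-GFP-positive cells) in 30 libraries (columns, by group), coloured by log2 of the normalised read count plus 1. The 3 columns of vas-GFP-positive cells stand above the rest in nearly every row, and CG9650 and CG7408 are the bright rows in knockout OSCs with ovo-FLAG.

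In the set as a whole, the median of the means in vas-GFP-positive cells was 102 normalised read counts, and 41 of 80 genes were at 100 or more. For the median gene the level in vas-GFP-negative cells was 1.95% of its level in vas-GFP-positive cells, and 10 genes had no read there. The vas-GFP-positive libraries were all above the vas-GFP-negative libraries for 75 of 80 members, where 21.9% of 10481 tested genes showed this. At a log2 fold change over 1 and an adjusted p under 0.01 (limma), 68 of 80 were called higher, against 7.04% of all genes tested. The choice used this contrast, so nothing is read from these counts. The groups overlapped for lncRNA:CR45911, CG6201, CG32720, lncRNA:CR46003 and lncRNA:CR43278.

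These 5 genes show how uneven germ cell values could be within the set. The lncRNA:CR45911, whose exon holds the genes of several microRNAs, had 176, 5.58 and 175 normalised read counts in the vas-GFP-positive libraries. CG6201, a counterpart of the lysosomal iduronidase, had 8.11, 185 and 148. No read was found in replicate 3 for CG32720 and lncRNA:CR46003, nor in replicate 2 for lncRNA:CR43278. Over the set the coefficient of variation in vas-GFP-positive cells ran from 2.93% to 140% with a median of 41.5%, and exceeded 50% for 32 genes. Among the 66 members with a mean of at most 200 the median was 46.8%, and among all 2098 genes from 50 to 200 it was 40.1%. It was 26.9% for the 14 members over 200.

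In the untransfected lines the set had 1614 reads in 152.5 M, or 13.5 reads per gene at the median. The highest of the 3 line means was under 1 for 22 genes, from 1 to under 5 for 44 and 5 or more for 14. No member was without a read in all 24 libraries of lines, nucleofected cells included, and 4 had none in the 12 untransfected libraries, which allows a level of up to 0.0197 RPM. The limit of 10 normalised read counts stood for 8 to 20 reads in an OSC library, so a mean below it was a handful of reads. Intervals and limits from read counts cover counting error only.

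The highest members differed between lines. In OSCs they were CG31517 at 9.90, CG9095 at 7.18, CG42324 with 3.54 to 8.71 in the 4 libraries, CG14305 at 5.84 and CG14186 at 5.67 normalised read counts. In the knockout CG9650 led at 9.55, with values of 20.3, 10.4, 3.53 and 3.97 in the 4 libraries, followed by CG6201 at 8.34, CG31517 at 7.27, CG7408 at 7.14 and CG42324 at 6.48. CG9650 is a zinc finger gene of the BCL11 kind, and its libraries were uneven, with the highest single value of any member in an untransfected line. In fGS/OSS the highest were ZnT35C at 6.80, CG6106 at 6.26, CG42324 at 5.45, CG14186 at 5.24 and CG40498 at 5.07. CG42324 was among the 5 highest in every line, and CG31517 had no read in fGS/OSS. CG9926, which overlaps CG31517 on the opposite strand, had means of 563 in OSCs, 654 in the knockout and 3.09 in fGS/OSS. Its part in the reads of CG31517 was not tested.

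**Figure D3:**
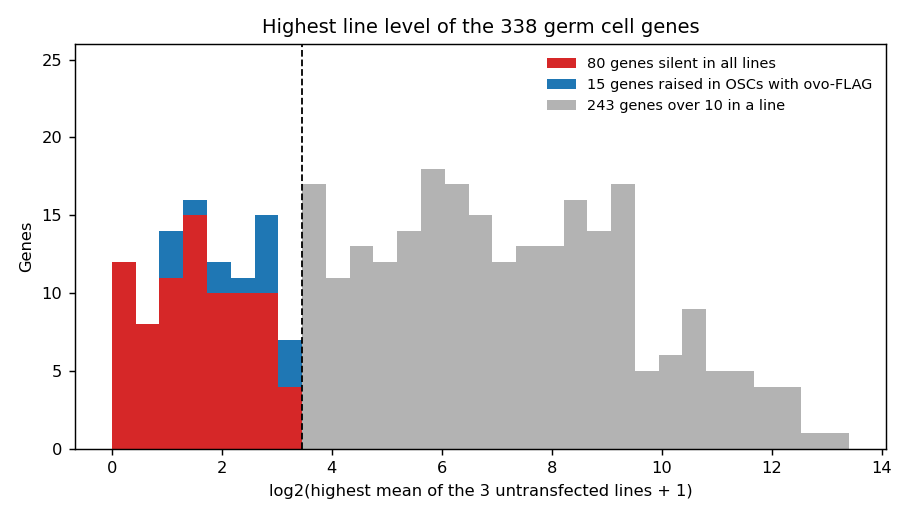
Number of genes (vertical axis) by log2 of the highest mean of the 3 untransfected lines plus 1 (horizontal axis) for the 338 germ cell genes, coloured by set, with the limit of 10 as a dashed line. The levels run on across the limit, with 30 of the 243 genes over 10 in a line lying between 10 and 20.

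The limits cut through continuous levels. Just inside the germ cell minimum were CG14186 at 50.2, Ugt305A1 at 50.6 and Myo81F at 50.98, and just outside were CG32645 at 49.6, lncRNA:CR45411 at 48.2 and lncRNA:CR45215 at 48.1. Just inside the fold were MFS12 at 9.18, CG7408 at 9.23 and CG9095 at 9.30, and just outside were Or9a at 6.56, Dh44-R2 at 6.36 and Ude at 5.37. Just inside the line limit were CG31517 at 9.90, CG9650 at 9.55 and CG6201 at 8.34, and just outside were CG12493 at 10.7, Hs3st-A at 10.9 and CG7149 at 11.3. In OSCs with ovo-FLAG the inner neighbours of the limit were CG9095 at 14.7, CG17801 at 14.5 and CG9650 at 13.6, and the outer ones CG5966 at 15.9, CG30046 at 18.8 and plu at 19.3. With a germ cell minimum of 25 in place of 50 the set had 176 genes, and with 100 it had 41.

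Few genes from lists of known germline pathways were in the set, and these lists did not hold stet or stil. Of 121 genes in 9 lists (the germline piRNA pathway, meiosis, oocyte divisions, egg activation, axis patterning, germ plasm, cyst differentiation, dorsal-ventral patterning and germline transcription regulators), 53 met the germ cell conditions. Of these 45 were over 10 in a line, 4 were raised to 15 or more by ovo-FLAG in OSCs, and 4 were in the set, namely otu, ord, cad and hb. Of all 338 genes that met these conditions, 243 were over 10 in a line, 15 were raised and 80 were in the set. Of the 13 germline-specific piRNA pathway genes, 11 met the germ cell conditions, all 11 were over 10 in a line and 0 were in the set. The study named these 13 genes from work on the same samples, so this count is not independent. The list genes that met the germ cell conditions were thus mostly genes with transcripts in a line. The piRNA gene aub, for instance, had 2322 normalised read counts in vas-GFP-positive cells and 29.1, 75.6 and 22.1 in OSCs, knockout OSCs and fGS/OSS.

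The summed level put the set beside the other germ cell genes. The 80 genes summed to 2655 ± 57.8 RPM in vas-GFP-positive cells (SD, n = 3) and to 63.2 ± 7.37 in vas-GFP-negative cells (SD, n = 3). They summed to 9.86 ± 1.84 in OSCs, 11.7 ± 1.37 in the knockout and 9.68 ± 1.08 in fGS/OSS (SD, n = 4 each). The 3 lines overlapped, and each line library was below each vas-GFP-negative library. The choice held each gene to a mean of at most 10 in the lines, while 14 members were over 10 in vas-GFP-negative cells. Nothing is read from this order. Over the same libraries the 243 genes over 10 in a line summed to 30150 ± 289 in vas-GFP-positive cells (SD, n = 3) and from 5284 ± 33.3 in fGS/OSS to 9654 ± 216 in the knockout (SD, n = 4 each).

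**Figure D4:**
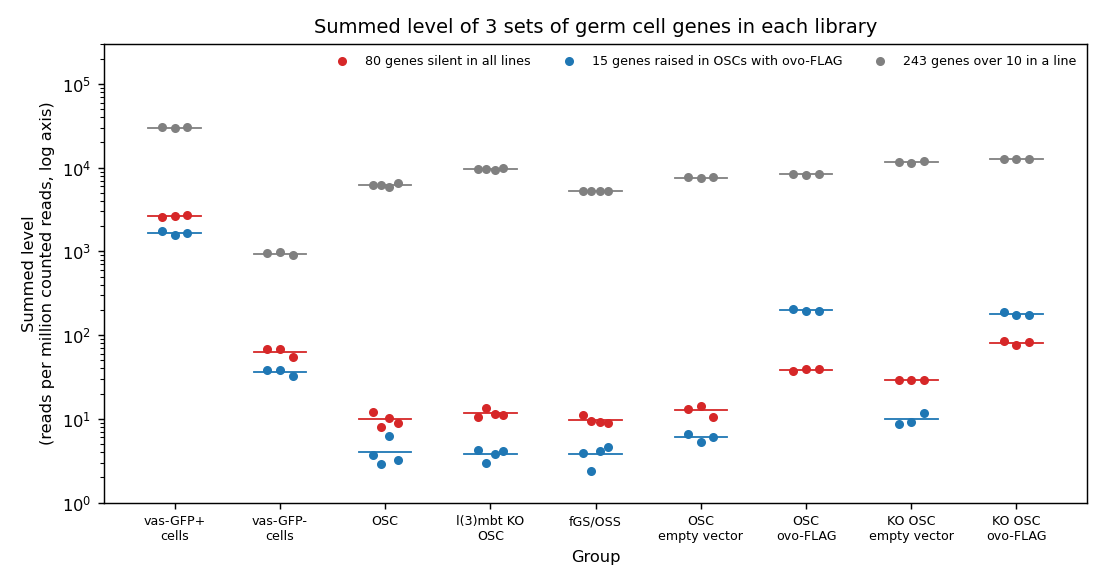
Summed level of 3 sets of germ cell genes in each library, in RPM on a log axis, by group (points, libraries; lines, group means). The 80 genes lie near 10 in the untransfected lines, at 28.8 to 29.0 in knockout OSCs with the empty vector and at 77.1 to 84.4 with ovo-FLAG.

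The comparison that the choice did not use was that of ovo-FLAG with the empty vector in l(3)mbt knockout OSCs, which already had ovo transcripts at 952 ± 73.7 normalised read counts and reached 2398 ± 146 with the plasmid (SD, n = 3 each). The count of ovo holds reads of both the plasmid and the own gene. It asks whether more Ovo raised these genes in cells that already expressed it. The summed level of the set was 29.0, 28.8 and 28.8 RPM with the empty vector and 84.4, 77.1 and 82.1 with ovo-FLAG, so the groups did not overlap. Without CG9650 and CG7408, which held much of the sum, it was 19.6 ± 1.58 and 52.9 ± 4.92 (SD, n = 3 each). The level with ovo-FLAG was 3.06% of that in vas-GFP-positive cells, whose libraries were made from total and not from poly(A) RNA. This difference in RNA type holds for every comparison of nucleofected with sorted cells below. With the empty vector the sum was above that of untransfected knockout OSCs, whose libraries were not made from poly(A) RNA, and the effects of RNA type and of nucleofection cannot be told apart here.

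A gene was called when its log2 fold change was past 0.6 in either direction with an adjusted p under 0.1 by limma on log2 of the normalised read count plus 1. By this measure 19 of the 80 genes were called higher with ovo-FLAG and 0 lower. Of all 9290 genes tested 9.43% were called higher and 2.53% lower, that is 876 and 235, and 607 and 565 when libraries were normalised by quantiles. Of the 80, 36 passed the filter of a mean of 2 over the 6 libraries, and 19 of these 36 had an empty vector mean under 2 and passed only because ovo-FLAG libraries were higher. Passing thus favoured genes that differed, so the share called among genes that passed is not read as a result. Of these 19 genes 14 were called, and their calls are not read as a result either. Of the 17 tested genes with an empty vector mean of at least 2, 5 were called higher. Among these was ord, whose mean was over 2 only through 1 read in the shallow replicate 3. The groups did not overlap, with ovo-FLAG higher, for 19 of the 36 tested members, where 24.3% of all tested genes showed this. The filter favoured such members, so nothing is read from this count. Among the called genes, 3 (CG11825, CG33017 and CG17801) had overlapping groups. No member had an unadjusted p under 0.05 in the lower direction, and edgeR and DESeq2 called 0 lower. With the empty vector 62 of the 80 means were under 2, so a fall could hardly have been called. Nothing is read from the 0 lower calls. The number called higher was 23 by edgeR and 17 by DESeq2. Without a filter on low values 78 of the 80 genes were tested and 25 called higher, the 14 included, where 7.85% of 13304 genes were called higher. A gene entered this fit with 1 read in any of the 6 libraries. Of the 80, 11 had no read with the empty vector and 2 had none in the 6, so some entered only through ovo-FLAG reads. The count of 25 is thus not read as a result. For the 14 genes the adjusted p-values below are those of the fit without a filter. Each of the 14 had at least 1 read with the empty vector, so its entry did not depend on the ovo-FLAG libraries.

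The largest levels in these cells were those of CG7408 and CG9650. CG7408 had 12.5, 11.3 and 22.7 normalised read counts with the empty vector and 95.1, 102 and 89.9 with ovo-FLAG. Its log2 fold change was 2.61 ± 0.25 (SE, adjusted p = 1.3e-07, limma), and it was called under all 14 alternatives. The mean of 95.6 was as high as the 92.5 ± 36.3 of vas-GFP-positive cells (SD, n = 3), in a table normalised apart and from another RNA type. CG9650 had 41.2, 39.3 and 45.4 with the empty vector and 75.5, 77.2 and 67.8 with ovo-FLAG (log2 fold change 0.79 ± 0.17, SE, adjusted p = 0.0014, limma). The groups of both genes did not overlap.

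The meiotic cohesion gene ord was the known germline regulator with the smallest adjusted p in the fit with the filter. Its values were 2.17, 0.727 and 3.79 with the empty vector and 12.6, 12.4 and 21.3 with ovo-FLAG (log2 fold change 2.42 ± 0.51, SE, adjusted p = 0.0011, limma). This rested on 7 reads against 57, a ratio of 11.2 per counted read with an exact 95% interval of 5.09 to 29.1. The empty vector mean of ord, 2.23, was over 2 only through 1 read in the shallow replicate 3, worth 3.79. Passing the filter may thus have favoured ord, as it did the genes with a mean under 2. The call of ord was kept under all 13 alternatives that tested it, the fit without a filter included. In OSCs ord had no read in the 3 libraries with ovo-FLAG and none in the 3 with the empty vector, and whether the effect differs between lines was not tested. The level reached in the knockout was 15.4, against 267 in vas-GFP-positive cells.

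The germline genes stet and stil were among the 14 genes with an empty vector mean under 2. For stet the values were 0, 2.18 and 3.79 with the empty vector and 6.29, 14.4 and 13.4 with ovo-FLAG (adjusted p = 0.0068, limma without a filter). For stil there was 1 read in the 3 empty vector libraries and 19 with ovo-FLAG, a ratio of 26.1 with an exact 95% interval of 4.15 to 1084 (adjusted p = 0.0095, limma without a filter). With the filter the call of stil was lost without ovo-FLAG replicate 1 and with quantile normalisation, and its adjusted p-values ran from 0.0006 to 0.13 over the alternatives.

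**Figure D5:**
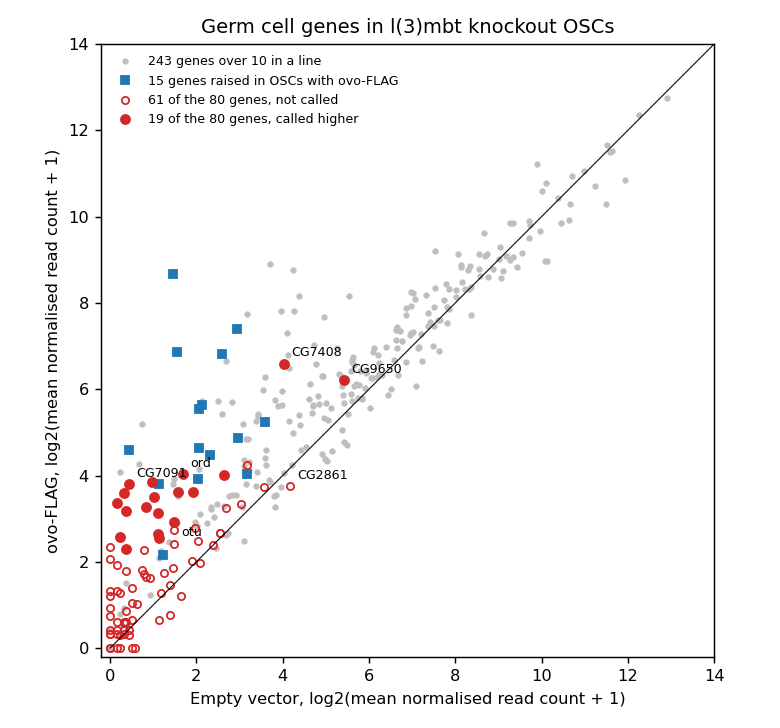
Mean level of germ cell genes in l(3)mbt knockout OSCs with the empty vector (horizontal axis) and with ovo-FLAG (vertical axis), both as log2 of the mean normalised read count plus 1, with the line of equal levels. The 19 genes called higher (filled red) lie above the line and mostly below 20 normalised read counts, with CG7408 and CG9650 apart from them.

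Several others of the 14 were near absent with the empty vector. The esterase gene alpha-Est1 had 1 read in the 3 empty vector libraries and 36 with ovo-FLAG (ratio 49.4, exact 95% interval 8.33 to 2006, adjusted p = 0.00037, limma without a filter). CG7091 had 2 reads against 48 (ratio 33.0, interval 8.64 to 280, adjusted p = 5.6e-05 in the same fit), and CG15820 had 2 against 40 (ratio 27.5, interval 7.12 to 235, adjusted p = 0.00011 in the same fit). All 3 stayed below their levels in germ cells, where their means were 627, 343 and 68.1. With ovo-FLAG alpha-Est1 had 13.3, 5.15 and 9.46 normalised read counts, CG7091 had 15.4, 13.4 and 10.3, and CG15820 had 9.09, 12.4 and 11.8, and for each the groups did not overlap.

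Also of the 14, CG10013 had 6 reads against 51 (adjusted p = 0.00029, limma without a filter), unc79 had 2 against 30 (adjusted p = 0.0009) and CG12605 had 5 against 30 (adjusted p = 0.0039). The glycosyltransferase gene Ugt305A1 had 1.63, 1.45 and 0 normalised read counts with the empty vector and 13.3, 4.12 and 13.4 with ovo-FLAG, so each ovo-FLAG library was higher (adjusted p = 0.0042 in the same fit). CG33017 and CG9095 were among the 5 called genes with an empty vector mean of at least 2. CG33017 had 2.17, 2.18 and 11.4 against 18.9, 15.4 and 11.04, so its groups overlapped through the shallow empty vector library. The call of CG33017 was lost without ovo-FLAG replicate 1 (adjusted p = 0.12, limma), and that of CG9095 without ovo-FLAG replicate 2 (adjusted p = 0.10, limma). CG9095 had 4.33, 4.00 and 0 against 8.39, 13.4 and 11.8 (adjusted p = 0.018, limma). The remaining called genes, all of the 14, were CG14905, CG4415, CG17801, CG42260 and CG11825. The least stable were CG42260, called under 3 of 13 alternatives, and CG11825, called under 6 of 13. CG4415, listed in the newer annotation as an alpha subunit of the nascent polypeptide-associated complex, had 2 reads against 15.

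Other members of known germline role did not pass. For otu the values were 0.542, 1.09 and 3.79 with the empty vector and 5.59, 5.15 and 2.37 with ovo-FLAG, so the groups overlapped (log2 fold change 1.05 ± 0.67, SE, adjusted p = 0.26, limma with the filter). The genes cad and hb did not reach the filter, with 3 reads of cad in each group and 1 against 6 reads of hb. Their ratios had exact 95% intervals of 0.184 to 10.3 for cad and 1.00 to 379 for hb, and neither interval excluded equal levels. The cuticle protein gene Cpr72Ec had no read with the empty vector and 15 with ovo-FLAG, with 4.93 as the exact 95% lower limit of the ratio. Of the 15 reads 12 were in 1 library, and Cpr72Ec was not called (adjusted p = 0.11, limma with the filter). CG15930 had 54 reads with the empty vector, none of them in the shallow library, and 67 with ovo-FLAG, where its values were 23.1, 16.5 and 14.2 (adjusted p = 0.21, limma). These groups did not overlap, and the spread with the empty vector was wide. ZnT35C, a leading germ cell gene of the set, had 2 reads with the empty vector and 2 with ovo-FLAG. CG2861 was the member with the largest fall in the fit, at 15.7, 16.4 and 18.9 with the empty vector and 16.1, 8.24 and 13.4 with ovo-FLAG (log2 fold change -0.45 ± 0.34, SE, adjusted p = 0.34, limma), and under quantile normalisation it was called lower.

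Some markers of other cell types were also called higher with ovo-FLAG in the knockout, where 9.43% of all tested genes were. The 8 muscle markers summed to 59.7 to 75.4 RPM with the empty vector and 107 to 117 with ovo-FLAG, and 3 of the 6 tested (Mhc, wupA and sls) were called higher, while up and Tm2 were too low to test. Of the 6 neuron markers 2 were called higher, nSyb and para, with sums of 203 to 222 and 226 to 245. Of the 10 markers of ovarian soma 2 of 9 tested were called higher (Yp3 and Cad99C), with sums of 1975 to 2073 and 1726 to 1798. The 8 markers of late spermatids were at or under 0.613 RPM in sum in all 6 libraries. Of the haemocyte markers 3 were tested and 0 called, and of the fat body markers 1 was tested and 0 called. The part of these cell types in the result was not tested.

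Beside the set, 14 of the 15 genes raised by ovo-FLAG in OSCs were called higher in the knockout, as were 89 of the 243 genes over 10 in a line, with 13 of these lower. Their medians of log2 fold change were 2.98 over 15 tested and 0.47 over 236 tested, against 0.03 over all 9290 genes. That of the 36 tested members was 1.62, a value set in part by the filter. In the pathway lists, 4 of 12 tested piRNA genes (aub, tej, AGO3 and qin), 5 of 21 genes of meiotic recombination and cohesion, 2 of 14 of oocyte divisions and 4 of 13 of egg activation were called higher in the knockout, where 9.43% of all genes were. So were 6 of 18 of axis patterning, 1 of 8 of germ plasm, 1 of 12 of cyst differentiation, 3 of 9 of the dorsal-ventral pathway and 3 of 8 transcription regulators, ovo itself included, and zld was the single list gene called lower. Among the 4 list genes of the set only ord was called, while otu was tested and not called and cad and hb were not tested. In summed level the 15 genes went from 9.84 ± 1.59 to 180 ± 8.25 RPM and the 243 genes from 11744 ± 234 to 12769 ± 142 (SD, n = 3 each).

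In wild-type OSCs the set was limited by the choice itself to means under 15, and its values are a description. The summed level was 13.1, 14.2 and 10.6 RPM with the empty vector and 36.9, 39.7 and 39.4 with ovo-FLAG. By the thresholds above, 11 of 80 genes would be called higher, where 8.78% of 9025 genes were. The choice used these values, so nothing is read from the count. The 11 included alpha-Est1 (2 reads with the empty vector and 16 with ovo-FLAG), CG15820 (0 and 19), CG7091 (0 and 8), CG10013 (9 and 20) and CG7408 (10 and 23). The others were CG9650, CG9095, CG17801, CG11825, cad and Cpr72Ec. The highest means with ovo-FLAG after those of CG9095, CG17801 and CG9650 were 11.2 for CG7408 and 10.5 for CG10013. The limit of 15 stood for 6 to 13 reads in a library of OSCs with ovo-FLAG, so silence there was read at shallow depth.

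The genomic position of the set was described beside that of other genes. Of the 80 genes 26 lay on chromosome X (32.5%), against 53.3% of the 15 genes raised in OSCs with ovo-FLAG, 25.6% of the 243 genes over 10 in a line and 18.2% of all genes at 50 or more in vas-GFP-positive cells. Noncoding RNAs made up 11.2% of the set, 2.89% of the 243 genes and 1.24% of genes at 50 or more in vas-GFP-positive cells. Single-exon genes were 18.8% of the set and 9.04% of genes at 50 or more. The median exon length was 2133 bases, against 2310.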

How the data were processed

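Per the labels, the authors used cutadapt 1.18 for trimming and STAR 2.7.3a for alignment to BDGP6, took reverse-strand counts from featureCounts (Subread 1.5.3) and divided the counts by DESeq2 1.30.1 size factors. The deposited signal in 4 tables is that quotient, and each table was normalised apart. All values (100%) were whole multiples of 1 read within 0.01, so whole read counts were recovered from the deposited values. The 5 tables of fold changes made by the authors hold log2 fold changes with errors, a Wald score and p-values as deposited, and were not used. No sample column was left unused (0).

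The test was limma 3.58.1 (R 4.3.3, trend and robust) on log2(value + 1) where the mean of a gene was 2 or more, adjusted by Benjamini and Hochberg over all genes tested, with no block. Ratios of reads have exact 95% binomial intervals, with 3 reads as the limit where none was found. Alternatives were pseudocounts of 0.5 and 5, no filter, a mean of at least 10, quantile normalisation, edgeR 4.0.16 (TMM) and DESeq2 1.42.0 on recovered reads, a replicate block, leaving out each library, and other limits of the rule. On simulated data for ovo-FLAG in the knockout, limma recovered 66% of genes changed 4-fold at means of 2 to 10, 4% of those changed 2-fold there, and 100% and 92% at means of at least 10.

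The members, gene lists and tests were chosen with earlier results of these data known. Named genes are the 15 highest in vas-GFP-positive cells, the 10 called with the smallest p, the 5 highest in each line and in OSCs with ovo-FLAG, list members and the 3 genes on each side of a limit. The rule also took members without a read in all 24 line libraries, of which there were 0. Other names were chosen after their values were seen. Genes were matched to Ensembl release 115 (BDGP6.54), a later annotation than the authors used on the same assembly, 74 by symbol and 6 by synonym. No sequence is printed, since only annotation tables were used here.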

Additional observations from a re-analysis of the deposited data

Results flagged for a closer look

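ZnT35C in fGS/OSS had a library far from the others. Its normalised read counts were 8.62, 2.30, 7.91 and 8.37, and replicate 2 at 2.30 stood apart by more than the 95% critical value of Dixon's test for 4 libraries. Of 22 groups of 4 libraries looked at (the summed level of the set in each line, and members with a mean of at least 5), 1 stood apart, and chance gives about 1 in 20.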

How the results depend on the processing

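The number of genes in the set was 176 and 41 with a germ cell minimum of 25 and 100, and 50 when levels were taken as RPM, of which 11 were in the set, with each limit then standing for another level than on the normalised scale. It was between 64 and 97 under the other limits, 72 with medians, and from 78 to 92 when a library was left out. Without vas-GFP-positive replicate 2 it was 88, of which 67 were in the set. With quantile normalisation 565 genes were lower with ovo-FLAG in the knockout and 385 in OSCs, with 607 and 551 higher, and 1 member, CG2861, was lower. DESeq2 called 64 genes lower in OSCs, against 106. A mean of at least 10 left 6 members tested, 3 of them higher. Without a library the number of members higher in the knockout ran from 14 to 20, and was 20 without the shallow empty vector replicate 3. Genes higher and lower ran from 712 to 933 and 198 to 258 in the knockout, 690 to 840 and 73 to 156 in OSCs, and 491 to 818 and 483 to 966 in sorted cells, where leaving out vas-GFP-negative replicates 1, 2 and 3 gave 507, 511 and 483 lower and replicate 3 gave 491 higher. Of 247 pairs of a member call and an alternative, 29 lost the call and 0 changed sign, and 12 of 19 members kept it under every alternative that tested them. Same-numbered libraries did not deviate together (correlations from -0.044 to 0.049). This gave no sign of pairing by number, but it cannot show that the libraries were unpaired. With the replicate block 870 and 227 genes were higher and lower in the knockout, 816 and 116 in OSCs and 649 and 770 in sorted cells, and 18 members were higher. Low counts limit all member calls below 20 normalised read counts, where 1 read in the shallowest library is worth 3.79.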
